A study of Mus musculus with 24 samples.

Results

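Open chromatin was described at the loci of 10 genes of the endothelium and of capillary growth: the ligands Vegfa and Angpt1, the receptors Kdr, Flt1, Tek and Tie1, the surface and junction proteins Pecam1 and Cdh5, and the transcription factors Sox17 and Sox18. A locus was the RefSeq gene body on mm10 plus 10 kb on each side. The peaks of all 24 libraries were merged into regions, those that 2 or more libraries called were kept, and every kept region that overlapped a locus was taken. This gave 261 regions of 459616 in all, and 10 genes of 34610. Flt1 had 75 regions, Pecam1 37, Tek 33, Cdh5 32, Tie1 20, Angpt1 19, Kdr 17, Vegfa 15, Sox18 9 and Sox17 4. The rule used no difference between stages or muscles, but the 10 genes were chosen with earlier results of these data known.

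Skeletal muscle fibres are fed by a dense net of capillaries, and slow, oxidative fibres are known for more capillaries than fast, glycolytic ones. Muscle fibres and other cells secrete VEGF-A, which acts on the endothelial receptor KDR (VEGFR2) and is bound by FLT1 (VEGFR1), which is also made as a soluble form that holds the ligand back. Angiopoietin-1, the product of Angpt1, is secreted by cells around vessels, binds the receptor TEK (TIE2) and keeps the endothelium quiet and tight, with TIE1 as a co-receptor.

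The assay was ATAC-seq, in which a transposase cuts DNA where chromatin is open and leaves adapters for sequencing there. All groups were male FVB/NJ animals, which are inbred, and the labels name no genetic change or treatment in any group. Adult samples came from 3 mice and embryonic samples, taken shortly before birth (E18.5), from 3 litters, each litter pooling male embryos. Of the hindlimb, in each animal or litter the soleus and vastus intermedius were taken as slow-biased muscles, and the gastrocnemius and vastus lateralis as fast-biased muscles, which gave 24 libraries in 8 groups of 3. The series text gives the adult age as P56 and the protocols as 3 to 4 months, and the age was not settled. Nuclei came from undigested tissue, so fibres, endothelium, pericytes, fibroblasts and blood cells could all contribute, and more cells of a type cannot be told apart from more open chromatin per cell. The names of the lists carry a date, and no date was shared between the stages, so date and stage cannot be told apart. Within a stage, adults 2 and 3 shared a date and adult 1 had another, and likewise litters 2 and 3 and litter 1.

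The deposited lists give only the position of each peak, so a region is either called or not called in a library, and a missing call does not show closed chromatin. Lists held 115333 to 228137 peaks, with means of 166593 in adult and 167856 in E18.5 libraries. In the adult, slow-biased lists averaged 153684 peaks and fast-biased lists 179502, and at E18.5 slow-biased lists averaged 166792 and fast-biased lists 168920. Adult libraries called 87 to 106 of the 261 regions at these loci (median 91) and E18.5 libraries 58 to 128 (median 96), so the groups overlapped and the E18.5 libraries spread more widely. Litter 3 was the lowest of the 3 litters in called regions at 9 of the 10 loci, all but Angpt1. Values without litter 3 are given where it decided the order at a locus or a call. Medians over loci or regions were not computed without it.

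Promoter windows of 5 of the 10 genes were matched in RefSeq (GRCm38.p6), each from 250 bases before to 50 bases after a listed start. They are shown because a peak overlapped each of the 5 in 21 to 24 libraries. The Tie1 window lay wholly under a peak in 13 libraries, and each of the others in 22 to 24. The windows of Vegfa and Tie1 are placed on the end of the gene body used here. Those of Kdr, Flt1 and Tek are placed on a start inside the gene body. Capitals mark the letters of a searched motif on either strand, and each sequence runs 5′ to 3′ on the strand of its gene. Sequences of Angpt1, Pecam1, Cdh5, Sox17 and Sox18 were not used here.
Vegfa (chr17:46032328-46032627, minus strand): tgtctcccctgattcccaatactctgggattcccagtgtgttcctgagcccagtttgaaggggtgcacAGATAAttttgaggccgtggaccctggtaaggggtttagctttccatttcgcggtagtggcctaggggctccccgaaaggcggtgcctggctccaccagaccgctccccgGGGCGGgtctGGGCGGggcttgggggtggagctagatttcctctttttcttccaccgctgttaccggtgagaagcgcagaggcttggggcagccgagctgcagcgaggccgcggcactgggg
Kdr (chr5:75978406-75978705, minus strand): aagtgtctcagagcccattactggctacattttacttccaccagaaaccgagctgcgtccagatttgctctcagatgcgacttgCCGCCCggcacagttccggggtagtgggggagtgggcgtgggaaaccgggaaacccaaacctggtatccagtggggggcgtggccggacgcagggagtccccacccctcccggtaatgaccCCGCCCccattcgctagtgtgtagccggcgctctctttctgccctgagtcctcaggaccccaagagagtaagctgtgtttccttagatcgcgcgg
Flt1 (chr5:147725962-147726261, minus strand): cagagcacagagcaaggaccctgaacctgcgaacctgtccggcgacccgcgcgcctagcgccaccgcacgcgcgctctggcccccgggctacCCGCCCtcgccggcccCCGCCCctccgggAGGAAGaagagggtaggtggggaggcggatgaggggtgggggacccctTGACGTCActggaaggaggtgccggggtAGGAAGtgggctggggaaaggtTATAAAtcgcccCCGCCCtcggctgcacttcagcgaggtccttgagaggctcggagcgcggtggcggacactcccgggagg
Tek (chr4:94739039-94739338, plus strand): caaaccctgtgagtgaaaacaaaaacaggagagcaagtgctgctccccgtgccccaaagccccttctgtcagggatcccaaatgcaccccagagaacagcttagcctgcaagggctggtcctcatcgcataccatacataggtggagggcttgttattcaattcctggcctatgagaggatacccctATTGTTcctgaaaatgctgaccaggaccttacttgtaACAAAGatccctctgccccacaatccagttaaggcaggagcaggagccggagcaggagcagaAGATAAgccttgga
Tie1 (chr4:118489800-118490099, minus strand): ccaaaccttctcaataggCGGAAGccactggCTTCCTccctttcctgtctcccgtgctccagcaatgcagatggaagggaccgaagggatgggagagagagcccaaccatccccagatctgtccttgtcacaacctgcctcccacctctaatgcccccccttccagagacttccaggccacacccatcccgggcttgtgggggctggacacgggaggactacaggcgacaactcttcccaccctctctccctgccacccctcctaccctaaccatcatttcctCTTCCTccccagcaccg

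The windows of Vegfa, Kdr and Flt1 lay in regions called in all 24 libraries. The Tek window was called in 11 adult and 12 E18.5 libraries, and the Tie1 window in 11 adult and 10 E18.5 libraries. The receptor windows differed in base composition, with 70.7% G or C in Flt1, 60.7% in Kdr, 60.3% in Tie1 and 52% in Tek, against 62% in the ligand gene Vegfa and a median of 52.7% over 32851 windows of the same length. The GC box (GGGCGG) matched 3 times in Flt1, 2 times in Kdr and 2 times in Vegfa, and 35.7% of all windows held it. The ETS core was searched as AGGAAG and, with its other first letter, as CGGAAG. It matched 3 times in Tie1 and 2 times in Flt1, and 46.5% of all windows held one. Flt1 alone of the 5 held a TATA box (TATAAA, in 13.6% of all windows) and a full cyclic AMP response element (TGACGTCA, in 1.79%). The SOX core, searched as AACAAT and in its other common form ACAAAG, was found in 27% of all windows and matched 2 times in Tek. The core of the blood and endothelial GATA factors, AGATAA, was found in 11.2% of all windows and matched 1 time in Tek and 1 time in Vegfa. The hypoxia response core (ACGTG, in 19.6%) had no match in these 5 windows. No motif overlapped another, and a match is a run of letters and not a measured binding site. A second RefSeq window inside Vegfa, at chr17:46025114-46025413, had a peak in 1 library.

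Regions that every library called made up a small share of the regions at these loci. Of the 261 regions, 13 (4.98%) were called in all 24 libraries, against 3.98% of all regions, and 93 were called in only 2 or 3 libraries. All but 1 of the genes held a region over an end of the gene body that was called in 20 or more libraries. At Sox17, a factor of arterial endothelium, the region over the upper end (chr1:4496373-4498077) was called in 12 adult and 10 E18.5 libraries, and a region inside the gene (chr1:4491562-4493932) in all 24. At Sox18, a factor of vascular and lymphatic development, the region over the gene (chr2:181670110-181672304) was called in 11 adult and 12 E18.5 libraries, and 2 regions below it in all 24, of which 1 lay at the lncRNA Gm29797. The region at the lower end of Cdh5, which encodes the junction protein VE-cadherin, was called in 12 adult and 11 E18.5 libraries, and it also overlapped the lncRNA Gm29682. At Angpt1 the region over the upper end (chr15:42674216-42677298) was called in 12 adult and 11 E18.5 libraries. The exception was Pecam1, which encodes the endothelial surface protein CD31: the region over its upper end (chr11:106714620-106716026) was called in 10 adult and 9 E18.5 libraries, while 3 regions inside the gene were called in all 24.

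Between the stages, the regions past the adjusted threshold lay at the Vegfa, Flt1 and Sox18 loci. Regions of Angpt1 and Pecam1 lay just outside it (adjusted Fisher's exact p = 0.0566), so the threshold does not set these loci clearly apart. Of the 261 regions, 103 had enough calls to be testable by Fisher's exact test on 12 adult and 12 E18.5 libraries (two-sided, Benjamini-Hochberg adjusted over all 170267 testable regions of the genome). Of these 103, 5 (4.85%) were called more often in adult muscle at an adjusted p under 0.05, where 1.55% of all testable regions were, and 1 (0.971%) was called more often at E18.5, where 4.55% of all were. At an unadjusted p under 0.05 the counts were 12 and 12, against 5.31% and 14.3% of all testable regions. Not 1 of the 261 was called in all 12 libraries of one stage and in 0 of the other, as 0.0231% of all regions were for adult muscle and 0.0646% for E18.5. The 12 libraries of a stage share 3 animals or litters, so these p-values are too small, and each of the 6 calls was lost when at least 1 of these animals or litters was left out (5 of the 6 without adult 1, and 5 without litter 3). Without litter 3 the balance turned. Of 154 testable regions, 1 was then called more often in adult muscle and 4 at E18.5, where 0.571% and 3.43% of all testable regions were.

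Of the ligand genes, Vegfa had 2 regions that were called more often in the adult. The region at chr17:46015175-46016970, which ends 23 bp below the lower end of the gene (its 3′ side, since the gene lies on the minus strand), was called in 4, 3 and 4 of the 4 muscles of adults 1 to 3, against 1, 0 and 1 muscles of litters 1 to 3. It was thus called in 11 adult and 2 E18.5 libraries (adjusted Fisher's exact p = 0.0168), and the animals and litters did not overlap. The region at chr17:46038515-46039786, 6138 bp above the upper end of the gene and so upstream of it, was called in 4, 4 and 3 muscles of the adults and in 1, 2 and 0 muscles of the litters. This was 11 adult and 3 E18.5 libraries (adjusted Fisher's exact p = 0.0453), again with no overlap. The regions were picked by these same calls, so the lack of overlap largely restates the pick and adds no support. A region inside Vegfa at chr17:46028384-46029468, next to the promoter region, was called in 7 adult libraries and in 0 at E18.5, and missed the threshold (adjusted Fisher's exact p = 0.0566).

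At the Vegfa locus as a whole, adult libraries called 5, 9 and 11 regions (lowest, median and highest) and E18.5 libraries 5, 7 and 9. The means of the 4 muscles were 10.2, 7.75 and 8.25 regions in adults 1 to 3, against 7.5, 7.0 and 6.5 in litters 1 to 3, so the lowest adult stood above the highest litter. Adults averaged 8.75 ± 1.32 and litters 7.0 ± 0.5 called regions per library (SD, n = 3 each), with an exact permutation p of 0.1, the smallest that 3 against 3 can give. Per 100000 called regions of the library, a division by the total that the library called, the locus had 7.05 ± 1.48 in adults and 5.14 ± 0.497 in litters. The division lowers the value of a long list even where the count does not rise with that total, as at Vegfa (Pearson r = -0.03). The order of the stages was the same.

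Angpt1 had the opposite order. Adult libraries called 2, 4 and 6 regions (lowest, median and highest), and E18.5 libraries 2, 6 and 10. The animal means were 4.5, 3.0 and 4.0 in adults, against 8.0, 5.0 and 5.75 in litters, which did not overlap. They averaged 3.83 ± 0.764 in adults and 6.25 ± 1.56 in litters (SD, n = 3 each, exact permutation p = 0.1). Scaled to 100000 called regions, they had 3.04 ± 0.817 in adults and 4.56 ± 1.24 in litters, which overlapped. Of its 19 regions, 10 had more calls at E18.5, 4 had more in the adult and 5 had equal calls. The widest gaps were at chr15:42468810-42469526 and chr15:42607623-42608277, both inside the gene and both called in 0 adult and 7 E18.5 libraries, which missed the threshold (adjusted Fisher's exact p = 0.0566 for each). Counting also the regions that a single library called, of which this locus had 44, Angpt1 had 6.92 regions in adults and 6.83 in litters, so the order of the stages rests on leaving those out.

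**Figure D1:**
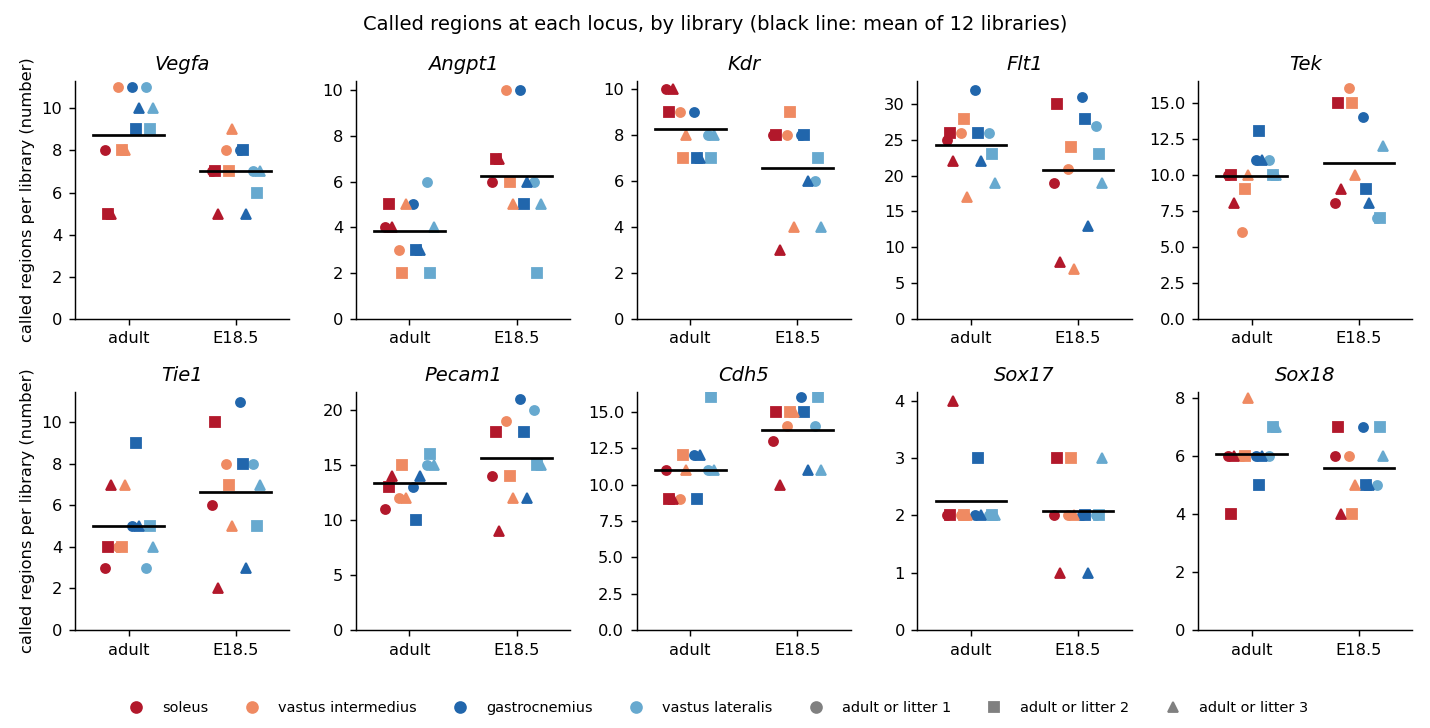
Called regions per library at each of the 10 loci (vertical axis, number of regions), with adult libraries left of E18.5 libraries, colour for the muscle, marker shape for the animal or litter and a black line at the mean of 12 libraries. Vegfa lay at 5 to 11 in adults and 5 to 9 at E18.5, Angpt1 at 2 to 6 in adults and 2 to 10 at E18.5, and the triangles of litter 3 are low at Kdr and Flt1.

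Among the receptors, Flt1 was the only one with regions past the threshold, and they lay in both directions. The region at chr5:147579111-147580763, inside the gene, was called in 4, 4 and 4 muscles of the adults and in 3, 1 and 0 muscles of the litters (adjusted Fisher's exact p = 0.0266). Another inside the gene, at chr5:147651000-147652089, was called in 3, 3 and 4 muscles of the adults and in 0, 1 and 0 muscles of the litters (adjusted Fisher's exact p = 0.0168). A region at chr5:147556958-147558006, 3598 bp beyond the 3′ end of this minus-strand gene, was called in 0, 0 and 1 muscles of the adults and in 3, 3 and 3 muscles of the litters (adjusted Fisher's exact p = 0.0453). In all 3 regions the animals and litters did not overlap, which largely restates the calls they were picked by and adds no support. Just outside the threshold lay chr5:147707178-147707905, with 2 adult and 10 E18.5 libraries (adjusted Fisher's exact p = 0.0506).

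Over the whole Flt1 locus the stages overlapped. Adult libraries called 17, 25.5 and 32 regions (lowest, median and highest), and E18.5 libraries 7, 22 and 31. The animal means were 27.2, 25.8 and 20 in adults, against 24.5, 26.2 and 11.8 in litters, and litter 3 stood far below the others. Adults averaged 24.3 ± 3.83 and litters 20.8 ± 7.91 (SD, n = 3 each, exact permutation p = 0.6), and without litter 3 the adult minus E18.5 difference was -1.12 regions in place of 3.5.

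Kdr, the main signalling receptor for VEGF-A, had 3 regions that all 24 libraries called, the most of any of these loci together with Pecam1. They were the promoter region (chr5:75977610-75979433), a region at the 3′ part of the gene (chr5:75933333-75934797) and a region beyond the 3′ end (chr5:75921564-75923522). Adult libraries called 7, 8 and 10 regions (lowest, median and highest), and E18.5 libraries 3, 7.5 and 9. The animal means were 9.0, 7.5 and 8.25 in adults and 7.5, 8.0 and 4.25 in litters, which overlapped (8.25 ± 0.75 in adults and 6.58 ± 2.04 in litters, SD, n = 3 each, exact permutation p = 0.3). Per 100000 called regions the adults, at 6.65 ± 1.15, and the litters, at 4.73 ± 0.927, did not overlap. Of its 17 regions, 9 had more adult calls and 3 more E18.5 calls, and the lowest adjusted p was 0.199. The upper end of the locus also holds the lncRNA Gm32727.

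The angiopoietin receptors showed no region past the threshold. Tek averaged 9.92 ± 0.52 called regions in adults and 10.8 ± 0.946 in litters (SD, n = 3 each, exact permutation p = 0.3). Tie1 averaged 5.0 ± 1.09 in adults and 6.67 ± 2.13 in litters (SD, n = 3 each, exact permutation p = 0.3). Adult libraries called 6 to 13 regions at Tek and E18.5 libraries 7 to 16, and at Tie1 adult libraries called 3 to 9 and E18.5 libraries 2 to 11, so the libraries of the stages overlapped at both. The animal means at Tek were 9.5, 10.5 and 9.75 in adults, against 11.2, 11.5 and 9.75 in litters 1 to 3, and at Tie1 they were 3.75, 5.5 and 5.75 in adults, against 8.25, 7.5 and 4.25. At both loci litters 1 and 2 stood above every adult and litter 3 did not. Without litter 3, Tek averaged 9.83 in adults and 10.8 in litters and Tie1 5.0 in adults and 7.88 in litters, with no overlap at either. Tek had the most regions that no adult library called, 8 of 33, and 3 that no E18.5 library called. The region with the most calls among the 8 was chr4:94789159-94789580, with 5 E18.5 libraries (adjusted Fisher's exact p = 0.197).

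**Figure D2:**
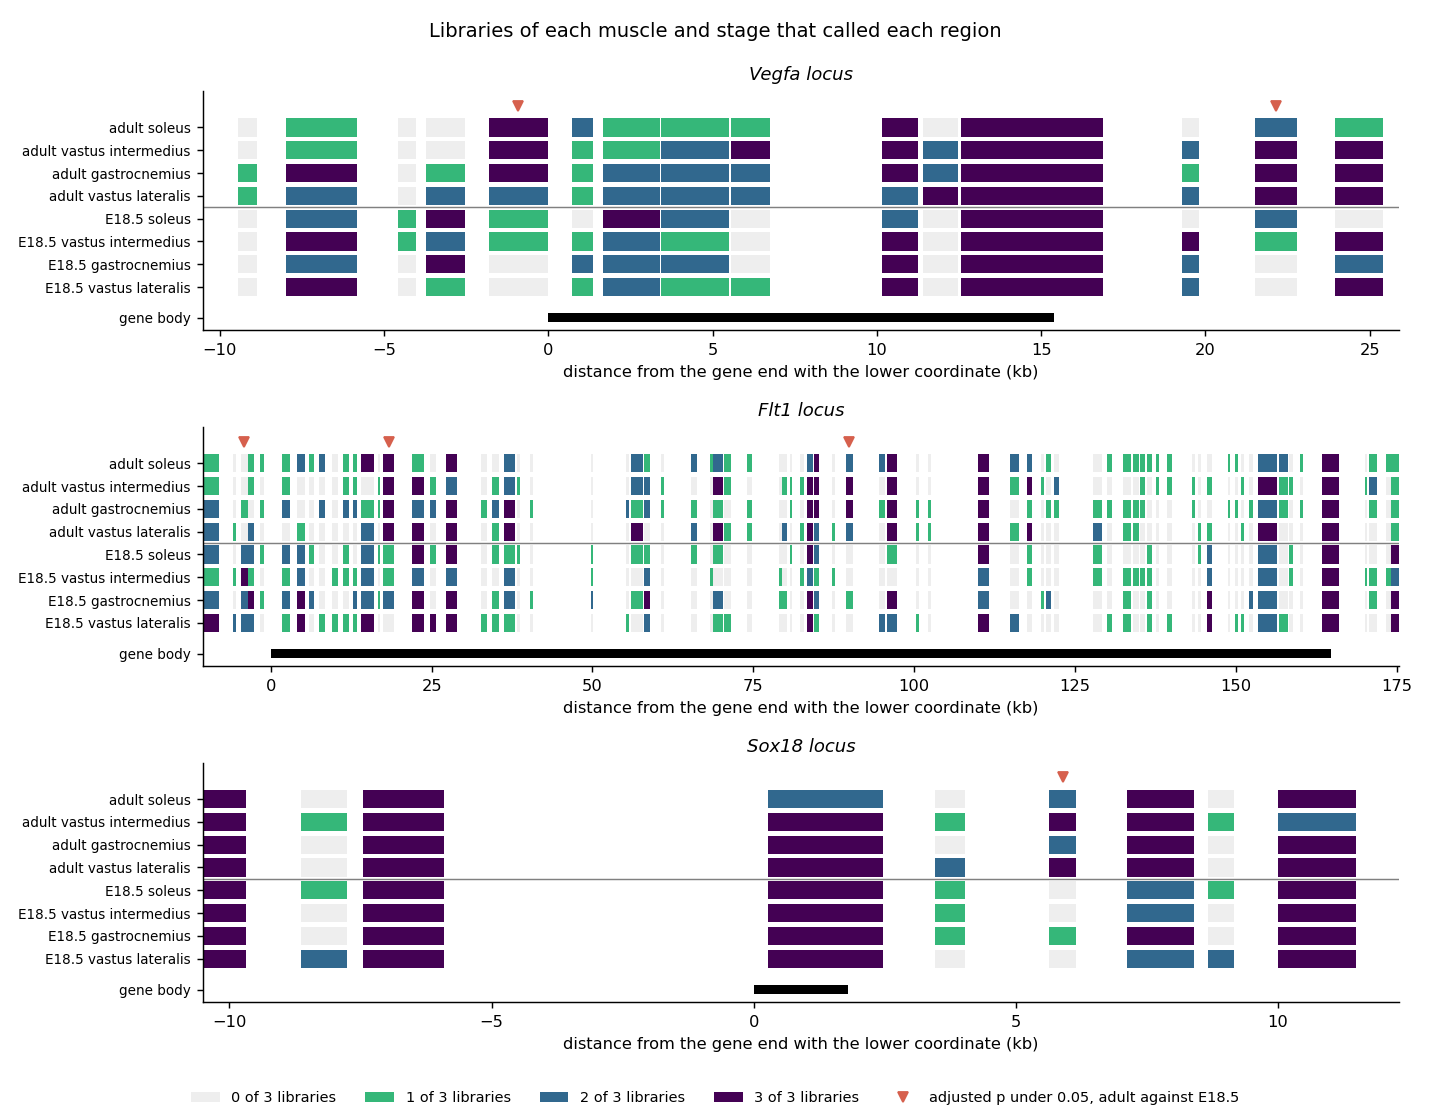
Calls along the Vegfa, Flt1 and Sox18 loci (horizontal axis, distance in kb from the gene end with the lower coordinate), with 1 row per muscle and stage, adult rows above E18.5 rows, and colour for how many of 3 libraries called a region. Arrowheads mark the 6 regions past the adjusted threshold between stages, of which 5 were adult-higher and 1, the leftmost at Flt1, more often at E18.5.

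Of the surface and junction genes, Cdh5 had more called regions at E18.5. Adult libraries called 9, 11 and 16 regions (lowest, median and highest), and E18.5 libraries 10, 14.5 and 16. The animal means were 10.8, 11.5 and 10.8 in adults, against 14.2, 15.2 and 11.8 in litters, so the highest adult stood just below the lowest litter. They averaged 11 ± 0.433 in adults and 13.8 ± 1.8 in litters (SD, n = 3 each, exact permutation p = 0.1), and per 100000 called regions 8.78 ± 0.392 in adults and 10.1 ± 0.118 in litters. No single Cdh5 region passed the threshold, with a lowest adjusted p of 0.197, and 16 of its 32 regions had more calls at E18.5 against 6 in the adult. With only the wider 50% of each list, Cdh5 had 7.0 called regions in adults and 6.75 in litters, so the order of the stages turned.

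Pecam1 averaged 13.3 ± 0.52 called regions in adults and 15.6 ± 3.3 in litters (SD, n = 3 each, exact permutation p = 0.4). Its animal means were 12.8, 13.5 and 13.8 in adults, against 16.2 in litter 2 and 12 in litter 3. Litter 1 was the highest, with 21 regions in the gastrocnemius, 20 in the vastus lateralis, 19 in the vastus intermedius and 14 in the soleus, so litter 3 lay below every adult and litters 1 and 2 above. Without litter 3, Pecam1 averaged 13 in adults and 17.4 in litters, with no overlap. A wide region inside the gene, chr11:106697851-106701332, was called in 12 adult and 5 E18.5 libraries and missed the threshold (adjusted Fisher's exact p = 0.0566).

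At the Sox18 locus, 1 short region was called more often in the adult. The region at chr2:181675476-181675977, 3836 bp above the upper end of the gene, was called in 4, 2 and 4 muscles of the adults and in 1, 0 and 0 muscles of the litters (10 against 1 libraries, adjusted Fisher's exact p = 0.0168). The animals and litters did not overlap, which again largely restates the calls it was picked by. The locus as a whole averaged 6.08 ± 0.629 called regions in adults and 5.58 ± 0.52 in litters (SD, n = 3 each, exact permutation p = 0.5). Adult libraries called 2 to 4 of the 4 Sox17 regions and E18.5 libraries 1 to 3, with a median of 2 in both stages, a difference of 0.167 in the means (exact permutation p = 0.8, 3 animals against 3 litters). The last Sox18 region lies at the neighbouring gene Tcea2, an elongation factor of transcription.

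**Figure D3:**
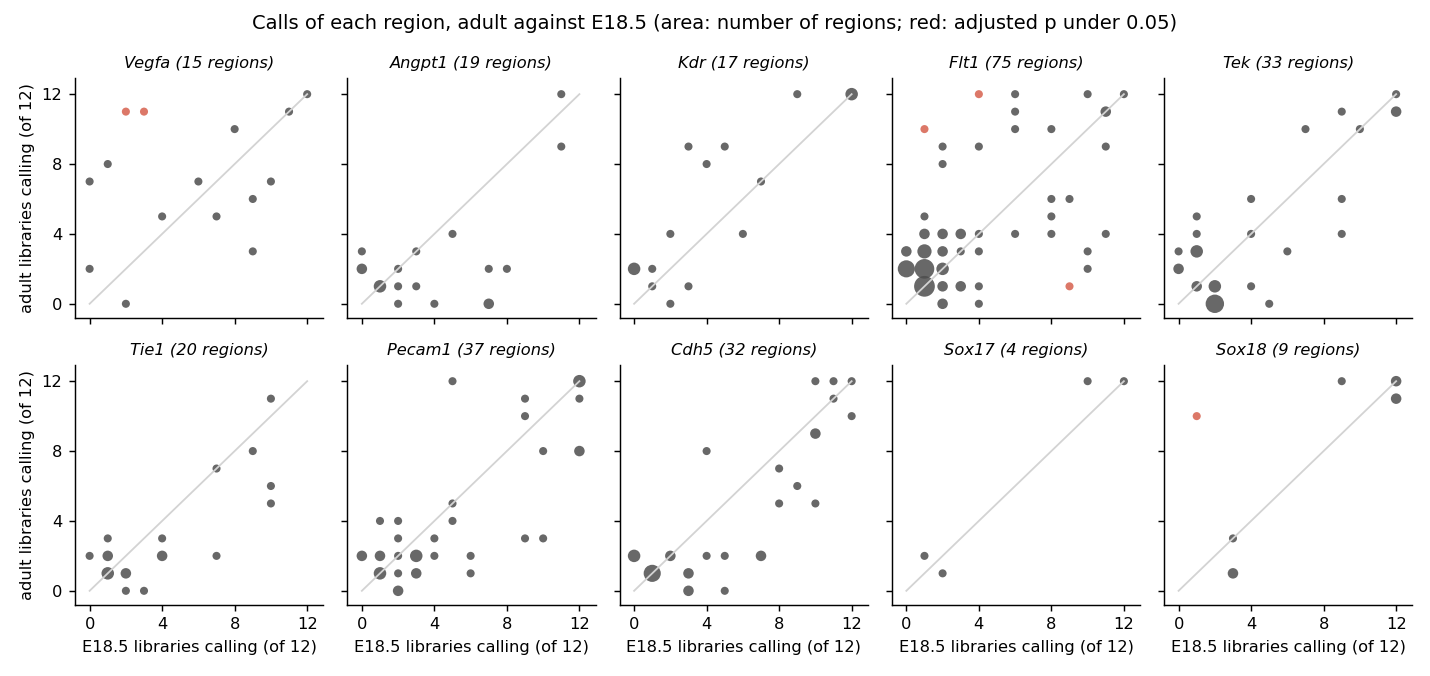
Number of adult libraries (vertical axis, of 12) against number of E18.5 libraries (horizontal axis, of 12) that called each of the 261 regions, 1 panel per locus, with point area for the number of regions at a position and red for an adjusted p under 0.05. The red points are 2 regions of Vegfa, 3 of Flt1 and 1 of Sox18, and Angpt1, Cdh5, Tie1, Pecam1, Tek and Sox18 have more regions below the diagonal, where E18.5 calls exceed adult calls, than above it.

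Counted over loci, 1 of the 10 (Vegfa) had 3 adult means above all 3 litter means, where 5.19% of 32823 genes with a kept region did, and 2 (Cdh5 and Angpt1) had them below, where 13.9% did. Per 100000 called regions, Vegfa and Kdr were higher in the adult (11.3% of all genes) and Cdh5 at E18.5 (14.3% of all). Without litter 3, the E18.5-higher loci were 5 of the 10 (Pecam1, Cdh5, Tek, Tie1 and Angpt1), where 34.1% of all genes were, and the adult-higher locus was Vegfa alone, where 6.15% were. The share of a locus's regions called per library differed between adult and E18.5 by a median of 0.694 percentage points over the 10 loci, against -2.78 over all genes. Both medians include litter 3 and were not computed without it. The sign over the 10 loci may therefore rest on litter 3. The widest differences were 11.7 points at Vegfa and -12.7 points at Angpt1. Over regions, 96 of the 261 (36.8%) had more adult calls and 105 (40.2%) more E18.5 calls, against 36% and 39.1% of all regions.

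The 13 regions called in every library were compared by how much of each region the peaks covered. None was wider with no overlap between animals and litters in either direction, where 5.2% of 18301 such regions were wider in the adult and 36.8% at E18.5. The median difference of adult from E18.5 cover was 2.45% over the 13 and -10.7% over all. These medians include litter 3 as well, and the sign over the 13 may rest on it. At the Vegfa promoter region, peaks covered 2624, 2381 and 2433 bp in adults 1 to 3, against 2274, 2504 and 2279 bp in litters 1 to 3. At the 3′ region of Kdr they covered 852, 968 and 960 bp in adults, against 843, 890 and 492 bp in litters, where litter 3 was again low. At the region inside Sox17 they covered 1775, 1495 and 1558 bp in adults, against 1931, 1824 and 1688 bp in litters, with overlap.

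**Figure D4:**
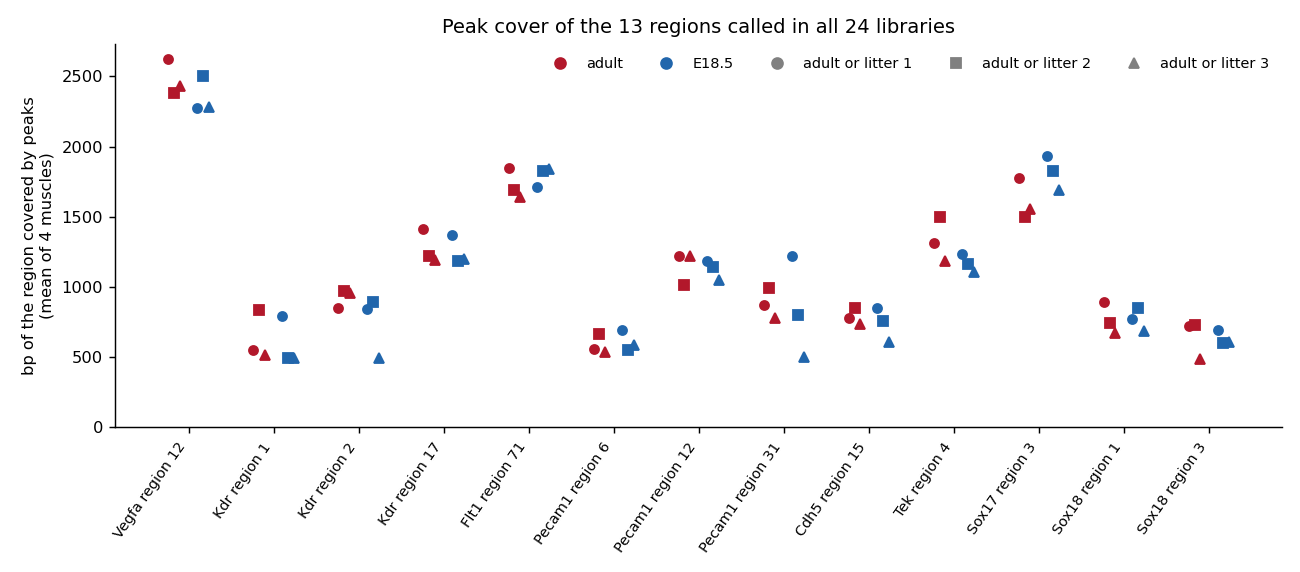
Base pairs of each of the 13 regions called in all 24 libraries that peaks covered (vertical axis, mean of the 4 muscles), with adults in red left of E18.5 litters in blue and marker shape for the animal or litter. Adults and litters overlap at every region, and litter 3 is lowest at Kdr region 2, with 492 bp, and at Pecam1 region 31, with 503 bp.

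Between slow- and fast-biased muscles no region of these loci passed the threshold, but the test could hardly pass any. Testable means here that an unadjusted p under 0.05 was possible. The smallest p that 6 against 6 can give is 0.00216, which adjustment over so many regions leaves above 0.05 unless very many regions reach it. That none passed therefore does not show that the muscles are alike. In the adult, 22 of the 261 regions were testable on 6 slow-biased and 6 fast-biased libraries, and 0 passed an adjusted p under 0.05 by Fisher's exact test in either direction, as did 0% of the 48133 testable regions of the genome. At an unadjusted p under 0.05 the counts were 0 and 0 as well, against 0.472% of all testable regions higher in slow-biased and 2.88% in fast-biased muscle. Over all 261 regions, 69 (26.4%) had more calls in slow-biased and 96 (36.8%) in fast-biased adult muscle, against 26.3% and 39.5% of all regions. At E18.5, 77 (29.5%) had more calls in slow-biased and 93 (35.6%) in fast-biased muscle, against 29.2% and 31.6% of all regions. There 27 were testable and again 0 passed in either direction, adjusted or not, where 0% of 49905 regions passed adjusted. Unadjusted, 0.234% of those were higher in slow-biased and 0.591% in fast-biased muscle. The widest gap in the adult was upstream of Tie1 at chr4:118491916-118494325, called in 5 slow-biased and 1 fast-biased libraries (Fisher's exact p = 0.0801). At E18.5 a gap of 4 libraries was the widest, at 3 regions. Inside Flt1, chr5:147657435-147658866 was called in 1 slow-biased and 5 fast-biased libraries (Fisher's exact p = 0.0801). Inside Cdh5 near its upper end, chr8:104142727-104144488 was called in 2 slow-biased and 6 fast-biased libraries and had too many calls to be testable. The third was inside Tek and is described with that locus.

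Per locus, Vegfa and Tek had fewer called regions in slow-biased than in fast-biased adult muscles before adjustment. At Vegfa the soleus called 8, 5 and 5 regions and the vastus intermedius 11, 8 and 8 in adults 1 to 3, against 11, 9 and 10 in the gastrocnemius and 11, 9 and 10 in the vastus lateralis. The soleus was thus the lowest muscle in each adult. Slow-biased libraries averaged 7.5 ± 2.26 called regions, against 10 ± 0.894 in fast-biased ones (SD, n = 6 each, exact permutation p = 0.0476, adjusted over 32823 genes 0.681). The 6 libraries of each side came from the same 3 adults, and this p splits all of them freely. Split within adults, the exact permutation p was 0.0278 (adjusted 0.642). Fast-biased adult lists were longer, and per 100000 called regions Vegfa had 6.75 in slow-biased libraries, against 7.35 in fast-biased ones (exact permutation p = 0.68). Since the Vegfa count hardly followed the total that a library called (Pearson r = -0.03), the division can itself narrow this gap. Before adjustment, 0.308% of all genes were higher in slow-biased and 6.82% in fast-biased adult muscle.

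At Tek, slow-biased adult libraries called 6, 9.5 and 10 regions (lowest, median and highest), against 10, 11 and 13 in fast-biased libraries. Slow-biased libraries averaged 8.83 ± 1.6, against 11 ± 1.1 in fast-biased ones (SD, n = 6 each, exact permutation p = 0.0216, adjusted 0.572), and per 100000 called regions the p was 0.439. Split within adults, the exact permutation p on unscaled counts was 0.037 (adjusted 0.663). A region inside the gene, chr4:94844946-94845551, was called in 0 slow-biased and 3 fast-biased adult libraries, all 3 of them gastrocnemius. At E18.5 it was called in 5 slow-biased and 1 fast-biased libraries (Fisher's exact p = 0.0801). At E18.5 the whole locus averaged 12.2 ± 3.54 in slow-biased libraries, against 9.5 ± 2.88 in fast-biased ones (SD, n = 6 each, exact permutation p = 0.212). Scaled to 100000 called regions, it had 8.86 in slow-biased libraries, against 6.7 in fast-biased ones (exact permutation p = 0.0216, and 0 genes passed adjustment on that scale), where 1.79% of all genes were higher in slow-biased and 2.42% in fast-biased E18.5 muscle at an unadjusted p under 0.05.

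Kdr had its highest counts in the soleus of the adult. The soleus called 10, 9 and 10 regions and the vastus intermedius 9, 7 and 8 in adults 1 to 3, against 9, 7 and 7 in the gastrocnemius and 8, 7 and 8 in the vastus lateralis. Slow-biased libraries averaged 8.83 ± 1.17 called regions, against 7.67 ± 0.816 in fast-biased ones (SD, n = 6 each, exact permutation p = 0.132, adjusted 0.875). Split within adults, the exact permutation p was 0.111 (adjusted 0.798). Per 100000 called regions Kdr had 7.66 in slow-biased muscle, against 5.63 in fast-biased muscle (exact permutation p = 0.0195, and 0 genes passed adjustment on that scale), where 3.67% of all genes were higher in slow-biased and 2.85% in fast-biased muscle at an unadjusted p under 0.05. Fast-biased adult lists were longer, and the Kdr count followed the total that a library called only weakly (Pearson r = 0.20). The division can thus itself widen this gap. The slow minus fast difference was 1, 1 and 1.5 regions in adults 1 to 3 and 1, 1 and -1.5 in litters 1 to 3.

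On unscaled counts, the other 7 loci had an exact permutation p above 0.05 in both stages, as did Vegfa, Tek and Kdr at E18.5. At E18.5, 0.253% of all genes were higher in slow-biased and 0.871% in fast-biased muscle before adjustment. After adjustment 0 of all genes passed in either stage, so none of the 10 did. The fibre difference of Vegfa was -1.5, -2.5 and -3.5 regions in adults 1 to 3 and 0, 0 and 1 in litters 1 to 3, and whether the stages differ in it was not tested, since 3 against 3 cannot pass 0.05. The median difference in the share of regions called, slow-biased minus fast-biased, was -1.76 percentage points over the 10 loci in the adult, against -4.17 over all genes, and 0.23 at E18.5, against -0.427.

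**Figure D5:**
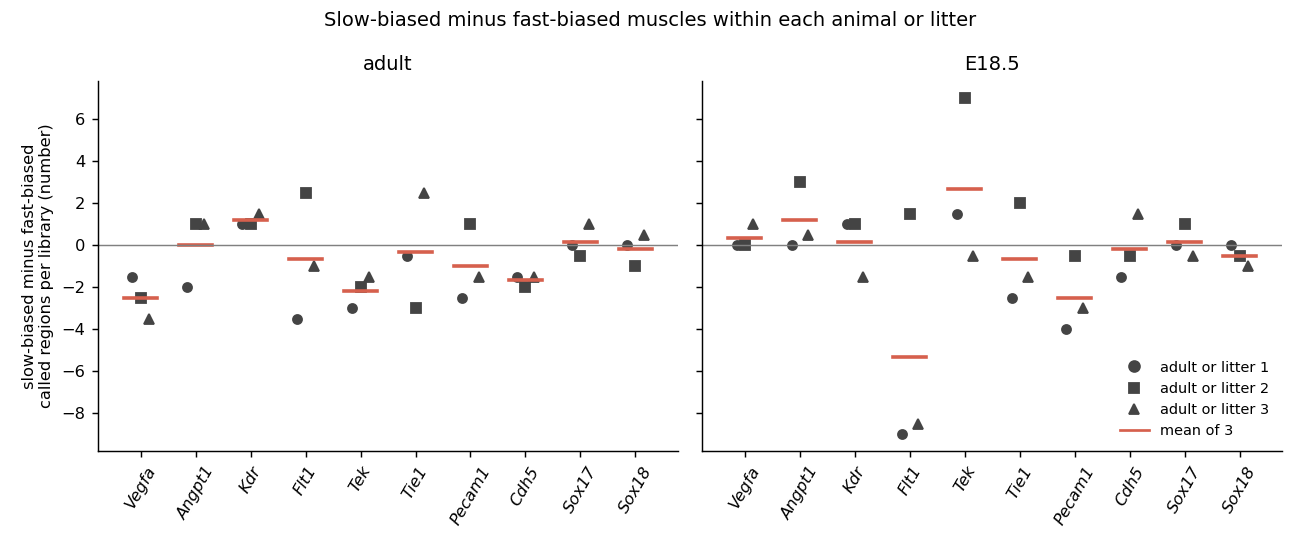
Slow-biased minus fast-biased called regions per library (vertical axis, number of regions) at each locus within each animal or litter, adults on the left and E18.5 litters on the right, with red lines at the mean of 3. In the adult all 3 points lie below 0 at Vegfa, Tek and Cdh5 and above 0 at Kdr, and at E18.5 Flt1 spreads from -9 to 1.5.

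Other genes of these pathways were read from companion lists of 93 genes, all found in the annotation. These lists too were chosen with earlier results of these data known. Among 12 further VEGF and angiopoietin genes, 118 regions were testable between the stages, of which 0 were adult-higher and 7 E18.5-higher at an adjusted p under 0.05. Of all testable regions of the genome, 1.55% were adult-higher and 4.55% E18.5-higher, and the counts of each list are to be read beside these shares. Of the 7, 3 lay at Nrp2, a co-receptor for VEGF, and 1 each at 4 other genes, among them Angpt2, the context-dependent antagonist of Angpt1, and Ptprb, the phosphatase that acts on TEK. Among 16 endothelial surface genes 3 regions of 90 were adult-higher and 3 E18.5-higher, with 2 of the adult-higher ones at Cd93, a surface lectin of endothelium, and 1 at Egfl7. The Cd93 locus averaged 3.92 ± 0.289 called regions in adults and 1.83 ± 0.382 in litters (SD, n = 3 each), with no overlap. Ramp2, a co-receptor for adrenomedullin, had the opposite order, with 2.83 ± 0.144 in adults and 3.67 ± 0.382 in litters, also with no overlap. Among 16 endothelial transcription factors 1 region of 233 was adult-higher and 5 were E18.5-higher, with the adult-higher one at Ets1 and E18.5-higher ones at Erg, Fli1 and Mecom among others.

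Among 12 arterial, Notch and BMP receptor genes, 3 regions of 87 were adult-higher, at Notch1, Gja5 and Unc5b, and 1 was E18.5-higher, at Dll4, a Notch ligand of sprouting tip cells. Among 6 lymphatic genes 0 regions of 73 were adult-higher and 6 E18.5-higher, 3 at Pdpn and 3 at Ccbe1. The 8 known regulators of Vegfa had 7 adult-higher and 5 E18.5-higher regions of 100. For these 3 lists too, the shares of all testable regions were 1.55% adult-higher and 4.55% E18.5-higher. Egln1, an oxygen-sensing hydroxylase, had 3 adult-higher regions and averaged 10.8 ± 0.577 called regions in adults and 8.92 ± 0.629 in litters, the 1 regulator locus of 8 that was adult-higher with no overlap. With no overlap, 3 others were E18.5-higher, among them Hif1a, a subunit of the hypoxia-inducible factor, with 2.42 ± 0.764 in adults and 3.75 ± 0.25 in litters, and Egln3, a hydroxylase like Egln1, with 5.33 ± 0.52 in adults and 7.5 ± 1.25 in litters (SD, n = 3 each). Of all genes with a kept region, 5.19% were adult-higher and 13.9% E18.5-higher with no overlap. Ppargc1a, the coactivator PGC-1α, which raises Vegfa in muscle, had 3 adult-higher and 2 E18.5-higher regions, and Egln3 had 2 E18.5-higher regions.

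Markers of other cell types had regions past the threshold in both directions, where 1.55% of all testable regions were adult-higher and 4.55% E18.5-higher. The 6 pericyte and smooth muscle genes had 1 adult-higher and 0 E18.5-higher regions of 61 testable, and the 6 blood cell genes 1 adult-higher and 2 E18.5-higher of 72. The 5 fibroblast genes had 0 adult-higher and 3 E18.5-higher of 39, and the 6 skeletal fibre genes 1 adult-higher and 2 E18.5-higher of 61. Summed over its genes, adult libraries called 38 to 61 pericyte regions and E18.5 libraries 41 to 72. For blood cells these sums were 37 to 62 in adult and 41 to 81 in E18.5 libraries, and for fibroblasts 16 to 32 in adult and 22 to 41 in E18.5 libraries. For skeletal fibres they were 34 to 65 in adult and 38 to 60 in E18.5 libraries, so single libraries of the stages overlapped for each of the 4 lists. By the means of animals and litters, 2 of the 5 fibroblast loci were E18.5-higher with no overlap, as were 2 of the 6 pericyte and 1 of the 6 blood cell loci, and 0 loci of these 3 lists were adult-higher. Over all genes with a kept region these shares were 13.9% E18.5-higher and 5.19% adult-higher. Col3a1, a fibrillar collagen of fibroblasts, averaged 3.58 ± 1.04 called regions in adults and 9.58 ± 1.04 in litters, and Col1a1, another, 6.0 ± 0.5 in adults and 7.75 ± 0.25 in litters (SD, n = 3 each). The median difference in the share of regions called was -9.6 percentage points over the fibroblast loci, -4.47 over the pericyte loci and -4.55 over the blood cell loci, against -2.78 over all genes. Of the skeletal fibre loci, 1 was adult-higher and 0 were E18.5-higher. The part of these cell types in the differences at the endothelial and capillary growth loci was not tested.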

How the data were processed

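The 24 ATAC-seq libraries have 1 peak list each. The submitters' processing notes name the build mm10 and these tools, with no role given: MACS2 2.1.1, bedtools 2.25.0, Picard, Bowtie2 2.4.4, SAMtools 1.14.0, Trimmomatic 0.39.0 and FastQC 0.11.5. The sources used here do not give thresholds, read depth or any shift of reads for the transposase. The deposited lists hold peak positions with no score, count or signal, 1 list per library, so list length was the only measure of depth, and no count of reads, interval or detection limit could be given. No pair of lists was identical (0 of 276).

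Peaks were merged into 930761 regions with Python 3.11.15, numpy 2.4.6, pandas 2.3.3 and scipy 1.17.1. Of these, 471145 were called in 1 library only, and the 459616 others were used, whose median width was 745 bp. A peak overlapping a region by at least 1 bp called it. Gene positions came from RefSeq (GRCm38.p6), whose table gave no strand or exons, so exons and introns were not told apart, and the strand was known for the 5 genes with a promoter window. Calls were compared by Fisher's exact test and called regions per locus by exact permutation tests (924 splits of 6 against 6, smallest p 0.00216), both two-sided and run over all regions or all genes before adjustment. Between stages the 4 muscles of each animal or litter were averaged.

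The 4 muscles of a replicate number came from the same mouse or litter, per the labels' protocols, so the numbers pair the muscles. Deviations of called regions from the group means correlated at 0.02 on average within an adult and at 0.11 within a litter. The 10 genes and the companion lists were chosen with earlier results of these data known. All 10 genes are named, and from a companion list at most 4 genes with the most regions past the threshold. The alternatives included the equal-length, wider-peak and scaled lists, other flanks and minimums, splits within animals and leaving out each replicate, and 1 more, the first peaks of each list, was chosen after seeing the data.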

Additional observations from a re-analysis of the deposited data

Results flagged for a closer look

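Of 40 groups of 6 libraries (a locus in the slow- or fast-biased muscles of a stage), 4 had a library far from the others by Dixon's test at 95%, where chance flags about 1 in 20 continuous values. Called regions are small whole numbers with ties, so that rate need not hold here. At Sox17 the other libraries were all equal, so a library that differed at all was flagged. Gastrocnemius of adult 2 accounts for 3 of the 4. It called 13 regions at Tek against 10 to 11 in the other fast-biased adult libraries, 9 regions at Tie1 against 3 to 5, and 3 regions at Sox17 against 2 in each of the others. Soleus of adult 3 called 4 regions at Sox17 against 2 in each of the other slow-biased adult libraries.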

How the results depend on the processing

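The count of adult-higher regions, 5 as reported, was 0 when calls in all 12 libraries of one stage and none of the other were required, 3 of 48 testable when peaks had to cover 50% of a region, 0 of 111 with equal numbers of random peaks per list, 2 of 78 without flanks and 8 of 78 with the first peaks of each list, chosen after seeing the data. The count of E18.5-higher regions, 1 as reported, was 0, 1, 0, 0 and 4 under these 5 settings, 2 of 66 with the wider 50% of each list and 3 of 201 with flanks of 50 kb. Over all testable regions, the adult-higher and E18.5-higher shares were 3.17% and 13.3% with 50% cover, 0.201% and 0.514% with random peaks, 4.04% and 9.51% with wider peaks, 3.56% and 9.73% with the first peaks, and as in the report with other flanks. Leaving out one animal or litter at a time gave 1 to 3 adult-higher and 0 to 4 E18.5-higher regions, with all-region shares of 0.56% to 0.84% and 1.13% to 3.43%. Without adult 1, without adult 3 and without litter 3 the adult-higher count was 1, and the E18.5-higher count of 4 was the fit without litter 3. Vegfa was the adult-higher locus without overlap (1 as reported). The number was 0 with regions of a single library counted, with 50% cover and with random peaks. Of all genes, 7.84%, 4.02% and 4.44% were adult-higher under these settings in turn. The number was 2 with wider peaks, with scaling to list length and with the first peaks, where the shares were 6.77%, 11.3% and 7.27%. The number stayed at 1 in every fit that left out a replicate, where the share of all genes ran from 6.15% to 9.48%. For E18.5-higher loci (2 as reported) the number was 0 with regions of a single library, with random peaks and with wider peaks. There 3410 of 33947 genes were E18.5-higher with single-library regions, 13.9% with random peaks and 15.7% with wider peaks. The number was 1 with 50% cover, without flanks, scaled and with the first peaks. The shares of all genes were then 17.5%, 10.8%, 14.3% and 18.9% in turn. Leaving out a replicate gave 1 to 5, where the share of all genes ran from 15.6% to 34.1%. The sign of the adult minus E18.5 difference turned in at least 1 setting at 8 of the 10 loci, all but Vegfa and Kdr. With wider peaks it was 0.25 regions at Cdh5, 0.667 at Pecam1, 0.917 at Tek, 0.167 at Tie1 and -0.0833 at Sox17. Angpt1 came to 0.0833 with single-library regions, Sox17 to -0.167 with 50% cover and -0.0833 with random peaks, and Sox18 to -0.0833 without flanks and -0.667 with flanks of 50 kb. Tek came to 0.0465 when scaled and 0.333 with the first peaks, and Flt1 to -1.12 without litter 3. The cause was not tested. With the replicate block, in which slow- and fast-biased muscles were split within an animal or litter, 0 regions and 0 loci passed in either stage, as without it, and the pairing changed no call. The smallest p of these splits was 0.00926, so adjustment could hardly be passed here either. With no read counts, depth limits every missing call.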

Other observations

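As a description over 24 libraries that share animals, litters and list lengths, the companion or member locus whose number of called regions followed each gene most closely was Sox7 for Flt1 (Pearson r = 0.78), Vwf for Tie1 (0.76), Csf1r for Pecam1 (0.73), Thbs1 for Cdh5 (0.72), Acta2 for Angpt1 (0.70), Ryr1 for Vegfa (0.67), Ptprb for Tek (0.66), Flt1 for Kdr (0.64), Nrp1 for Sox17 (0.63) and Pdgfb for Sox18 (0.50). Called regions followed the total number of regions that the library called at Tek (r = 0.71), Pecam1 (0.66), Tie1 (0.66) and Flt1 (0.57), and hardly at Vegfa (-0.03), Sox18 (0.03) and Kdr (0.20). Per 100000 called regions the Pearson r of these pairs was 0.71 for Flt1, 0.53 for Tie1, 0.50 for Pecam1, 0.46 for Cdh5 and 0.64 for Angpt1. It was 0.75 for Vegfa, 0.36 for Tek, 0.67 for Kdr, 0.64 for Sox17 and 0.65 for Sox18. Both loci of a pair are then divided by the same total, which can itself raise r, so these values do not show a likeness apart from list length.

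Regions that a single library called, which the report leaves out, numbered 46 at Flt1, 44 at Angpt1, 31 at Tek and 21 at Kdr, against 3 at Vegfa and 2 at Sox18.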
